A study of Mus musculus with 8 samples.

Results

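The 38 genes described here encode the complement and coagulation factors of blood plasma, most of them made by hepatocytes. They were taken by name from the 14312 named genes tested on the arrays: 17 belong to the complement system and 21 to clotting and the dissolution of clots. Each gene is represented by its brightest probe, and all 38 were well above background in both channels of all 8 arrays. Every array set RNA of a hepatocellular carcinoma (HCC) from a male mouse carrying the miR-122 KO genotype, labelled with Cy5, against RNA of liver from a male miR-122 floxed mouse of matched age, labelled with Cy3. Both genotypes were on a mixed C57BL/6J and 129S/Svj background, so the comparison joins the loss of miR-122, the most abundant microRNA of the hepatocyte, with tumor formation, and these cannot be told apart. Ages, the Cre driver, whether tumors shared a mouse and whether the control RNA came from 1 or several livers are not given in the labels, and p-values measure the spread between these 8 arrays.

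Complement is a chain of plasma proteases and binding proteins that marks microbes and damaged cells. The lectin route starts when mannose-binding lectin with its MASP proteases binds sugars, the alternative route amplifies through factor B, and both meet at C3. Beyond C3, the components C5 to C9 assemble a pore, the membrane attack complex. Clotting runs from the contact system or from factor VII through a series of proteases to thrombin, which turns fibrinogen into fibrin, while antithrombin and protein C restrain it and plasmin dissolves the clot. Because hepatocytes supply nearly all of these proteins, their transcripts are commonly read as a measure of differentiated liver function.

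All values below are log2 ratios of tumor over control within an array, given as mean ± SD over 8 arrays unless another n is stated, and adjusted p-values come from limma with Benjamini-Hochberg adjustment over all 14312 genes. Genes count as called where that p is under 0.05 and the mean change reaches 2-fold in either direction. The tumors carried the same dye on every array, so a dye effect cannot be told apart from a tumor effect. In bulk tissue, fewer hepatocytes and less RNA per hepatocyte cannot be told apart. The share of probes well above background was 38.5% to 51.9% in the tumor channels and 45.1% to 54.3% in the control channels, and no spot was saturated. Of 9 hepatocyte markers tested, 2 were called lower and 0 higher, and their summed log2 level was 19.32 to 19.87 in tumors and 19.69 to 20.17 in controls. Of these 9, Fgb, is itself a member, so that list is not independent of them. The control liver of array 8 stood apart, with a summed log2 level of 12 skeletal muscle markers of 16.56 against 10.09 to 10.47 on the other arrays; the tumor of that array was at 12.60, against 10.11 to 10.37 in the other tumors. The miR-122 transcript itself was not analysed here, so the genotype labels were not checked.

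Of the 38 members, 16 (42.1%) were called lower in the tumors and 0 higher. Over all genes tested, 5.94% were called lower and 9.54% higher. The 16 were the mannose-binding lectins Mbl1 and Mbl2 with the protease Masp2, 5 of the 6 membrane attack genes (Hc, C6, C8a, C8b and C9), the inhibitor Serping1, the clotting factors F9, F11, Klkb1, F13b and Fgg, protein Z (Proz) and plasminogen (Plg). Ignoring size, 26 members had an adjusted p under 0.05 and a negative mean, against 25.1% of all genes, and 2 members (Pros1 and Cpb2) a positive one, against 28.7% of all genes. The same 26 and 2 had an unadjusted p under 0.05, against 3989 and 4529 of all 14312 genes. The ratio lay below 0 on all 8 arrays for 22 members (all genes 16.6%) and above 0 on all 8 for 2 (all genes 17.1%). The median over the members was -0.82, beside 0.03 over all genes tested. On single arrays the members' median ran from -0.51 on array 1 to -1.03 on array 3, so it was negative in each of the 8 tumors.

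**Figure D1:**
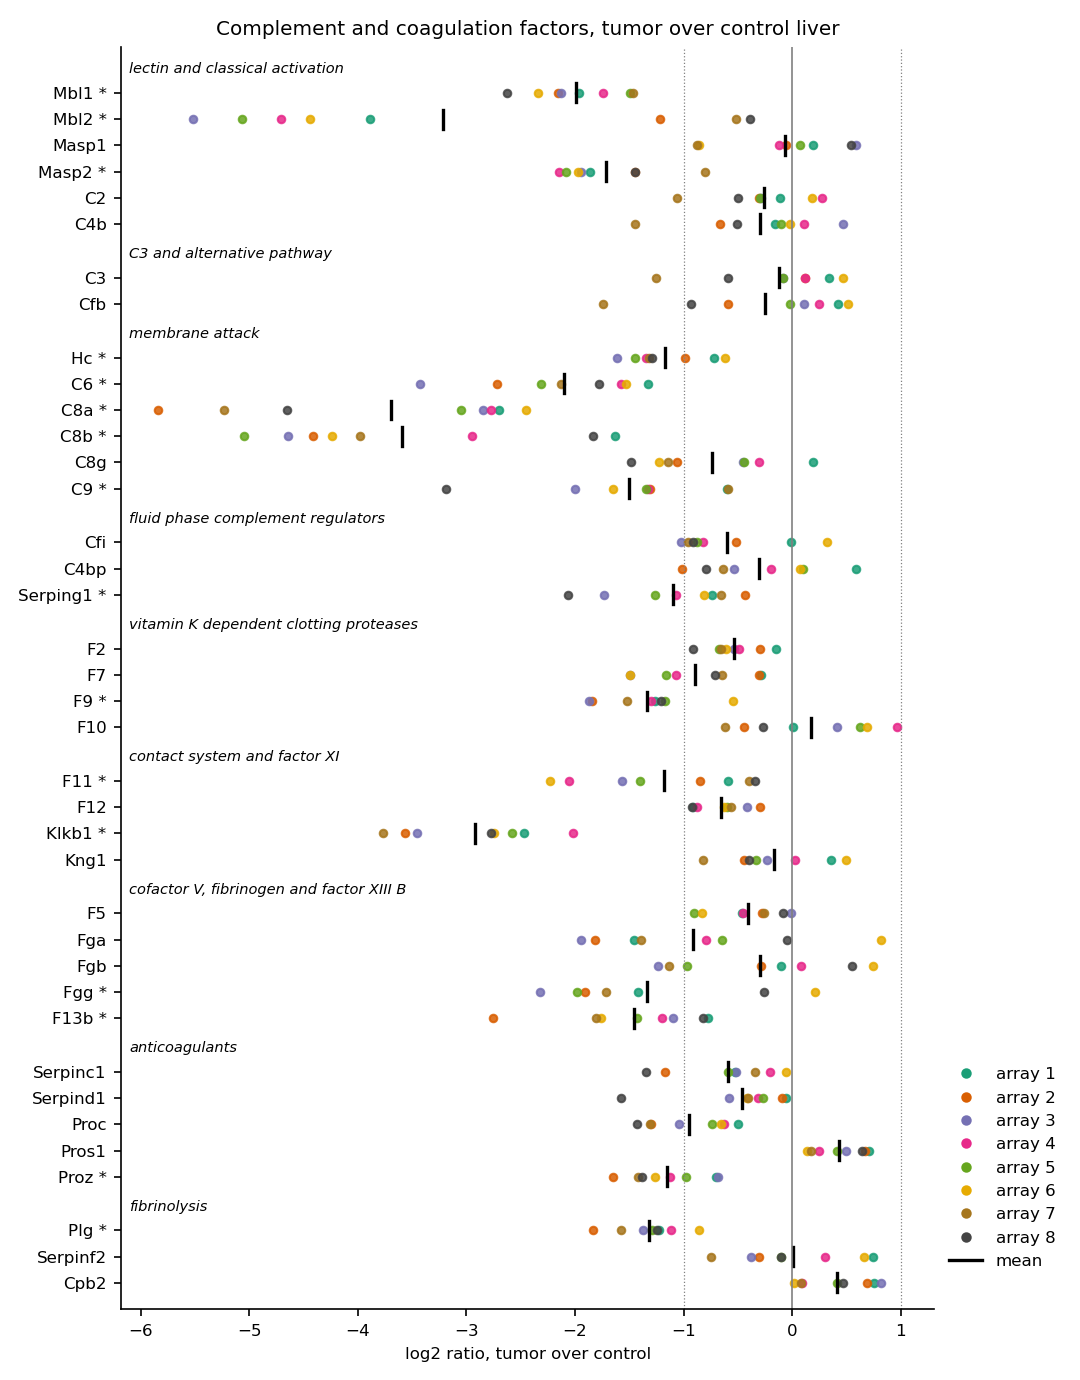
Log2 ratio of tumor over control (x axis) of each of the 38 members, grouped by role (y axis). Each point is 1 of the 8 arrays, the black bar is the mean, dotted lines mark 2-fold, and an asterisk marks a gene called lower; C8a, C8b, Mbl2 and Klkb1 lie farthest to the left, and none of the 38 is called higher.

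Of the 17 complement members 9 were called lower, with a median of -1.10, and of the 21 clotting members 7, with a median of -0.65. After normalization, the tumor values were more spread than the control values for 31 of the 38 members (81.6%), close to the 83% of all genes, with a median SD of 0.45 in tumors and 0.26 in controls.

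Both mannose-binding lectins, sugar sensors of the lectin route, were lower in every tumor. Mbl1, mannose-binding lectin A, was 3.97-fold lower (-1.99 ± 0.41, adjusted p = 5.62e-06), with ratios from -2.62 on array 8 to -1.47 on array 7. Mbl2, mannose-binding lectin C, was 9.31-fold lower in the mean (-3.22 ± 2.14, adjusted p = 0.00244), but its spread was the widest of all members. Its ratios on arrays 1 to 8 were -3.89, -1.22, -5.52, -4.71, -5.07, -4.44, -0.52 and -0.39. The tumors of arrays 1, 3, 4, 5 and 6 were thus far below their controls, while those of arrays 7 and 8 lay close to them and that of array 2 in between. The difference arose in the tumor channel, whose normalized log2 signal ran from 10.72 to 15.92, while the 8 control signals lay between 16.23 and 16.93. With the 4 arrays of the second row of the slide alone, Mbl2 was at -2.60 with an adjusted p of 0.0997 by limma, so that call was lost there. Mbl2 and Mbl1 did not differ as a pair (-1.23 ± 2.26, exact permutation p = 0.172, adjusted over 12 pairs 0.229), and given that spread the pair is not shown to act alike.

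The MASP proteases, which cleave C4 and C2 once a lectin has bound, differed. Masp2, the protease that cleaves both, was 3.28-fold lower (-1.71 ± 0.45, adjusted p = 1.97e-05), with ratios from -2.14 to -0.80. Masp1, which activates it, was at -0.07 ± 0.56 (adjusted p = 0.772), with 4 arrays below 0 and 4 above. The difference between them within arrays was -1.65 ± 0.83 (n = 8, exact permutation p = 0.0156, adjusted over 12 pairs 0.0312), negative on 7 of 8 arrays. Averaging arrays 1 and 2 into 1 replicate left the adjusted p at 0.0536, and with the processed signals the difference was -1.07.

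The central components did not pass the test. C3, the hub on which all routes converge, was at -0.12 ± 0.56 (adjusted p = 0.589), and Cfb, factor B of the alternative route, at -0.25 ± 0.78 (adjusted p = 0.407). C2, the partner of Cfb in the classical and lectin routes, was at -0.26 ± 0.42 (adjusted p = 0.137), and C4b at -0.29 ± 0.59 (adjusted p = 0.21). C4b has a near-identical copy, C4a, whose transcripts the probe may share. The ratio of array 7 was the lowest of the 8 for each of these genes, at -1.26 for C3, -1.74 for Cfb, -1.06 for C2 and -1.45 for C4b. The control signal of array 7 was also the highest of the 8 for each, at 18.10, 16.47, 14.87 and 17.17. For C2 the tumor signal was lower on array 8 (13.65) than on array 7 (13.81). On the other 7 arrays the C3 ratio stayed between -0.59 and 0.46. C2 and Cfb, neighbours on chromosome 17 with no coding gene between them, differed by -0.01 ± 0.44 (n = 8, exact permutation p = 0.938, adjusted 0.938).

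The membrane attack genes held the 2 largest falls among the members, and all 6 had an adjusted p under 0.05. C8a, the alpha chain of C8, was 12.9-fold lower (-3.69 ± 1.33, adjusted p = 7.48e-05), and C8b, its beta chain, 12.1-fold lower (-3.59 ± 1.30, adjusted p = 7.57e-05). Hc, the mouse gene of C5, whose cleavage starts the pore, was 2.25-fold lower (-1.17 ± 0.35, adjusted p = 5.95e-05), and C6, which binds C5b, 4.29-fold lower (-2.10 ± 0.71, adjusted p = 5.91e-05). C9, which forms the ring of the pore, was at -1.50 ± 0.83 (adjusted p = 9.98e-04), with its lowest value of -3.18 in the tumor of array 8 and the other 7 between -2.00 and -0.59. Every array was below 0 for these 5 genes.

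C8 is a trimer, and its gamma chain was lowered less than the alpha and beta chains. C8g, which encodes that chain, a lipocalin that joins C8 alpha through a disulfide bond, was at -0.74 ± 0.57 (adjusted p = 0.00713), a fall of under 2-fold, with array 1 above 0. Its second, dimmer probe was at -1.15 ± 0.49, past 2-fold and below 0 on all 8 arrays. Within arrays C8a was lower than C8g by more (-2.95 ± 1.09), as was C8b (-2.85 ± 1.34); each difference was negative on all 8 arrays, with the smallest exact permutation p that 8 arrays allow, 0.00781 (adjusted over 12 pairs 0.0234). With the mean of each gene's probes these differences were -2.23 and -2.65 (adjusted exact permutation p = 0.0187 for each). C8a and C8b lie side by side on chromosome 4 with no coding gene between them, whereas C8g is on chromosome 2. Between C8a and C8b the mean difference was -0.10 ± 1.81 (exact permutation p = 0.867, adjusted 0.938, n = 8), from -2.82 to 2.00 on single arrays.

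That wide range came from tumors in which the chains fell by different amounts. The ratios of C8a on arrays 1 to 8 were -2.70, -5.84, -2.84, -2.78, -3.05, -2.45, -5.23 and -4.66. Those of C8b were -1.63, -4.42, -4.64, -2.94, -5.04, -4.24, -3.98 and -1.84. C8a was lowest in the tumors of arrays 2, 7 and 8, the same 3 in which Mbl2 was nearest to its control, while C8b had its smallest falls on arrays 1 and 8. The C8a signal of the tumors was 8.86, 9.54 and 9.43 on arrays 2, 7 and 8 and between 11.86 and 12.48 on the other 5, against 14.09 to 15.21 in the controls. The second C8a probe had the smaller mean of -2.65 ± 0.75. Summed bile duct markers also differed among these tumors: their log2 level was 13.33, 13.74 and 11.44 in the tumors of arrays 2, 7 and 8 and between 15.57 and 16.62 in the other 5, against 10.76 to 12.74 in the controls. Spp1 was the brightest of these markers in every tumor and weighed most in the sum. In the tumor of array 3 it was at 16.53 alone, where the sum was 16.62. Spp1, Krt7, Epcam and Sox9 were each lower in the tumors of arrays 2, 7 and 8 than in the other 5. Krt19 and Cldn7 did not separate them. Krt19 was at 7.90 in the tumor of array 8 and 7.63 in that of array 1. Cldn7 was at 11.19 on array 2 and 11.16 on array 5. The part of bile duct cells in the values of Mbl2 and C8a was not tested. The split was noticed in the values and has no test.

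**Figure D2:**
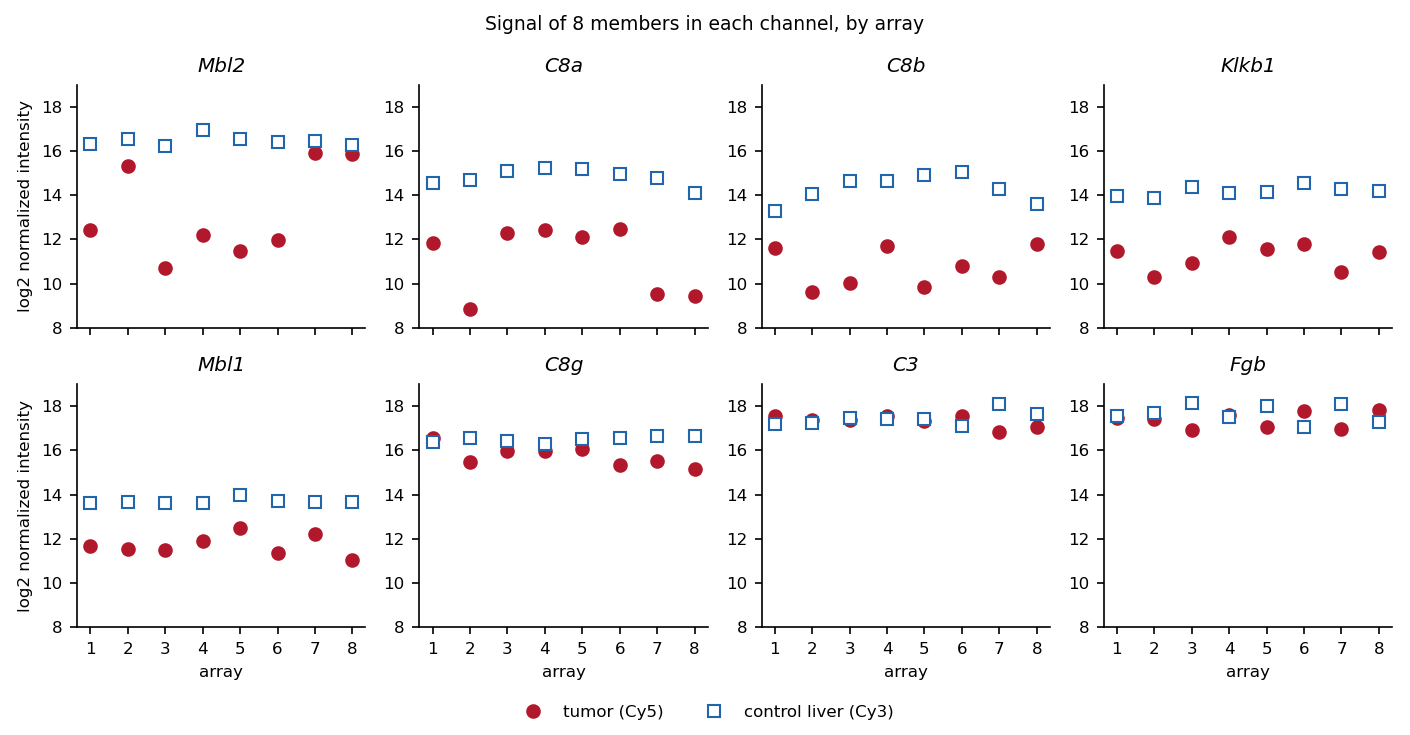
Normalized log2 intensity (y axis) of 8 members in the tumor channel (filled circles) and the control channel (open squares) of each of the 8 arrays (x axis). Control signals of Mbl2 stay between 16.23 and 16.93 while tumor signals run from 10.72 to 15.92, and the tumors of arrays 2, 7 and 8, highest for Mbl2, are lowest for C8a; levels of different genes come from different probes and are not comparable.

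Of the 3 fluid-phase regulators 1 was called lower. Serping1, the C1 inhibitor, which blocks both the first complement proteases and plasma kallikrein, was 2.14-fold lower (-1.10 ± 0.56, adjusted p = 7.9e-04). Its ratio was lowest on array 8 at -2.07, and without that array the mean was -0.96, short of 2-fold. Cfi, factor I, which degrades C3b and C4b, was at -0.60 ± 0.50 (adjusted p = 0.0112). C4bp, the binding protein that assists it, was at -0.30 ± 0.54 (adjusted p = 0.164).

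Among the clotting genes, the largest fall was in the contact system. Klkb1, plasma prekallikrein, which activates factor XII and frees bradykinin, was 7.58-fold lower (-2.92 ± 0.61, adjusted p = 4.76e-06). Its ratios on arrays 1 to 8 were -2.47, -3.56, -3.46, -2.02, -2.58, -2.74, -3.77 and -2.77, a fall of over 2 log2 units in every tumor. Kng1, the kininogen that carries prekallikrein and is its substrate, was at -0.17 ± 0.44 (adjusted p = 0.352), with 3 arrays above 0. The 2 genes differed by -2.75 ± 0.47 within arrays, negative on 8 of 8 (exact permutation p = 0.00781, adjusted over 12 pairs 0.0234). Kng1 has a near-identical copy, Kng2, whose transcripts its probe may share.

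A second Kng1 probe had a mean near that of the first but another pattern. Its ratios on arrays 1 to 8 were 0.47, -1.20, 0.63, 0.26, 0.60, 0.65, -1.57 and -1.43 (-0.20 ± 1.01). It was below the control in the tumors of arrays 2, 7 and 8 and above it in the other 5, whereas the brightest probe of Kng1 ran from -0.82 to 0.50. The choice of probe thus left the mean near 0 and changed which tumors were low.

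F11, factor XI, the next protease of this route and the direct neighbour of Klkb1 on chromosome 8, was 2.26-fold lower (-1.18 ± 0.74, adjusted p = 0.00214). Its ratios were lowest on arrays 6 (-2.23) and 4 (-2.05) and nearest 0 on arrays 8 (-0.34) and 7 (-0.40), where Klkb1 was at -2.77 and -3.77. The 2 neighbours therefore did not share an order of tumors. With the second row of the slide alone, F11 was at -1.09 with an adjusted p of 0.0798 by limma. F12, factor XII, was lower on all 8 arrays by under 2-fold (-0.65 ± 0.23, adjusted p = 3.65e-04).

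The promoters of Klkb1 and F11 are shown because these neighbours were both called lower and each holds the FOXA motif TGTTTAC and the C/EBP motif TTGCNNAA, short letters bound by liver transcription factors. The windows run 250 bases before to 50 after the start of the gene, 5′ to 3′, from RefSeq on GRCm38.p6, at chr8:45294786-45295085 (Klkb1) and chr8:45261982-45262281 (F11), both on the minus strand. Capitals mark the motif matches. FOXA starts 21 bases before the gene start in Klkb1 and 25 before in F11.
Klkb1: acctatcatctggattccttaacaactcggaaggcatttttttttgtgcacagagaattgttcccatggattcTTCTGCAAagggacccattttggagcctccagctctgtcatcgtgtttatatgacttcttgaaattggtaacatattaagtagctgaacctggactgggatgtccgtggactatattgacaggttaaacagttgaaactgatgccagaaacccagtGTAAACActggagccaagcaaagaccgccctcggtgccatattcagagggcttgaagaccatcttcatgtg
F11: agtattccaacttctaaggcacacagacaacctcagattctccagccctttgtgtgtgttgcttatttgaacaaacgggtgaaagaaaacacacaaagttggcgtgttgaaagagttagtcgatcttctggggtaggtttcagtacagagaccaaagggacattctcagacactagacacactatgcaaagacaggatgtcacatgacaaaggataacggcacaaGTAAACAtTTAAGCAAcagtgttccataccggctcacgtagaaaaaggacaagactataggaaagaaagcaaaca
Motif letters were searched on both strands in the promoters of the 29 members that the RefSeq table holds and in all 32851 promoters of that length. Promoters of Masp1, C2, C4b, Cfb, Cfi, Serping1, Kng1, Proc and Plg were not analysed here. C/EBP letters stood in 9 of the 29 (31.0%), namely C3, C9, F9, F11, Klkb1, Fga, Fgb, Serpinc1 and Cpb2, and in 10.8% of all promoters. FOXA letters stood in 2 (6.90%) and in 3.65% of all promoters. The 9 holders of the C/EBP letters included genes called lower (C9, F9, F11 and Klkb1) and genes that were not (C3, Fga, Fgb, Serpinc1 and Cpb2). A match describes letters only and marks no proven site.

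The promoters of C8a and Mbl2, shown because C8a was lowest in the 3 tumors in which Mbl2 was nearest to its control, held none of the 5 motifs searched. They are at chr4:104876349-104876648 on the minus strand and chr19:30232678-30232977 on the plus strand.
C8a: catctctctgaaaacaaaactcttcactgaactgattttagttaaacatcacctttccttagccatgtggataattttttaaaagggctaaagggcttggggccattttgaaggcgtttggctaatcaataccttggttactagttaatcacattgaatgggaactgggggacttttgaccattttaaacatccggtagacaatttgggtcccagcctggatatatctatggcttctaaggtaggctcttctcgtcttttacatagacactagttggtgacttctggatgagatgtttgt
Mbl2: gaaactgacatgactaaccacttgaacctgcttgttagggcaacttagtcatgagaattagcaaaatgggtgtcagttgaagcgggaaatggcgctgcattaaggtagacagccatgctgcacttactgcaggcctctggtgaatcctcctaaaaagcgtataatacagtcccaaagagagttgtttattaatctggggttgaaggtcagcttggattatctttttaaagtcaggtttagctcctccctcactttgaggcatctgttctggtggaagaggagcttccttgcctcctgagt
HNF1 letters, TTAATNATT, stood in 3 members (Hc, C4bp and F13b; 10.3%) and in 1.47% of all promoters. The HNF4 letters CAAAGTCCA were in 0 of the 29 members and in 0.475% of all promoters. The Hc promoter, at chr2:35061363-35061662 on the minus strand, held the HNF1 letters on both strands in overlapping matches.
Hc: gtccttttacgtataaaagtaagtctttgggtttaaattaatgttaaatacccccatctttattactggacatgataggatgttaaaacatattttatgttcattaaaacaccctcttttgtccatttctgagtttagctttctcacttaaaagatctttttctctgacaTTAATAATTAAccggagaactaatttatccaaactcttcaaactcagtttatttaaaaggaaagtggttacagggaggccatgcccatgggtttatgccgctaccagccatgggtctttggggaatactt

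Of the 4 vitamin K dependent proteases 1 was called lower. F9, factor IX, encoded on the X chromosome, was 2.53-fold lower (-1.34 ± 0.42, adjusted p = 5.81e-05), with ratios from -1.87 to -0.55. F7, factor VII, which starts clotting together with tissue factor, was at -0.90 ± 0.48 (adjusted p = 0.0012), and F2, prothrombin, at -0.54 ± 0.24 (adjusted p = 0.00111); both were below 0 on all 8 arrays, by less than 2-fold in the mean. The second F7 probe was at -1.13 ± 0.53, and with the mean of both probes F7 was called lower at -1.01 (adjusted p = 7.14e-04 by limma). F10, factor X, the protease that activates prothrombin, was at 0.17 ± 0.58 (adjusted p = 0.46), with 3 arrays below 0. Its second probe was at -0.75 ± 0.33 and below 0 on all 8 arrays, and the mean of both was -0.29 (adjusted p = 0.0435 by limma), so the probes of F10 disagree and no direction is given for that gene. F7, F10 and Proz lie next to each other on chromosome 8, and Proz, protein Z, which helps to inhibit factor X, was 2.22-fold lower (-1.15 ± 0.35, adjusted p = 5.95e-05).

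Fibrinogen is a hexamer of 3 chains from adjacent genes on chromosome 3, and 1 of the 3 was called lower. Fgg, the gamma chain, was called lower at -1.34 ± 0.95 over 7 arrays (adjusted p = 0.00589); its spot on array 4 was flagged as an outlier by the scanner software, and with that spot kept the mean was -1.25 ± 0.91. Fga, the alpha chain, was at -0.91 ± 0.94 (adjusted p = 0.0239), short of 2-fold. Its second, dimmer probe was at -1.06 ± 1.06, past 2-fold, with its lowest ratio on array 2 (-2.44). Fgb, the beta chain, was at -0.29 ± 0.76 (adjusted p = 0.315).

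The ratios differed between arrays for all 3 chains, and the controls were spread slightly more widely than the tumors. The SD of the normalized log2 signal was 0.52 in tumors and 0.56 in controls for Fga. It was 0.36 and 0.40 for Fgb, and 0.48 and 0.49 for Fgg. Fga had ratios of -1.45, -1.82, -1.94, -0.79, -0.65, 0.82, -1.39 and -0.05 on arrays 1 to 8. Fgb had -0.10, -0.29, -1.23, 0.08, -0.97, 0.74, -1.13 and 0.55. Fgg had -1.42, -1.90, -2.32, -1.98, 0.21, -1.72 and -0.26 on arrays 1, 2, 3, 5, 6, 7 and 8. The tumor of array 6 was above its control for all 3 chains, and that control was the lowest measured for Fgb (17.05) and Fgg (16.61). With the brightest probes, array 3 had the lowest ratio of each chain. Fgg was lower than Fgb on each of 7 arrays (-0.99 ± 0.39, exact permutation p = 0.0156, adjusted over 12 pairs 0.0312), and averaging arrays 1 and 2 left the adjusted p at 0.0536. Fgb minus Fga was 0.62 ± 0.65 (exact permutation p = 0.0469, adjusted 0.0703, n = 8) and Fgg minus Fga -0.42 ± 0.46 (exact permutation p = 0.0312, adjusted 0.0536, n = 7). With the mean of each gene's probes, Fgb minus Fga was 0.69 and passed (adjusted exact permutation p = 0.0187). With the second row of the slide alone, Fgg was at -0.94 with an adjusted p of 0.159 by limma.

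The 3 fibrinogen promoters are shown because fibrinogen is an acute phase protein induced by IL-6, and the letters CTGGGAA are known from IL-6 response elements, where STAT3 binds. They are at chr3:83007474-83007773 (Fgg), chr3:83025903-83026202 (Fga) and chr3:83049814-83050113 (Fgb) on GRCm38.p6, on the plus, plus and minus strand, with motif matches in capitals.
Fgg: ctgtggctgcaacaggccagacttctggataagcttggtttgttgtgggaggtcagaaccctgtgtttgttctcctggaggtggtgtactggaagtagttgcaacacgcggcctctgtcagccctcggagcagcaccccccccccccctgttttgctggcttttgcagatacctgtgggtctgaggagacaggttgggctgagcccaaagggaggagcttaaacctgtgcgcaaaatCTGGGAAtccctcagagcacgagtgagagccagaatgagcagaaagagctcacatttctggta
Fga: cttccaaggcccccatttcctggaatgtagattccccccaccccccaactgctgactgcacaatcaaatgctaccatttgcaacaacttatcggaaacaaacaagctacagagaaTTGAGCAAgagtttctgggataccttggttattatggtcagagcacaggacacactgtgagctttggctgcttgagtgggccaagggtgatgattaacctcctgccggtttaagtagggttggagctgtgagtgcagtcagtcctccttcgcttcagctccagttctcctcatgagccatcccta
Fgb: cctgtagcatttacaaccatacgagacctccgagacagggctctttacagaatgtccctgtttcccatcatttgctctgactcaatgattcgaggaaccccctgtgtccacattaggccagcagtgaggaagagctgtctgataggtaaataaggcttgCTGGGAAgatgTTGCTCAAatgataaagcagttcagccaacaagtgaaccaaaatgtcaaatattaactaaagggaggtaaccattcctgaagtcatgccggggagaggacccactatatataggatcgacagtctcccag
The CTGGGAA letters stood in Fgg and Fgb and not in this window of Fga, whose capitals are C/EBP letters, as is 1 of the 2 matches in Fgb. Over the 29 members 5 held them (17.2%: Masp2, C6, F9, Fgb and Fgg), and over all promoters 11.1%. Of these 5, Fgb was not called and the other 4 were called lower, where 42.1% of all 38 members were. A link between these letters and the calls was not tested.

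The remaining clot genes were F13b and F5. F13b, the carrier subunit of the enzyme that cross-links fibrin, was 2.74-fold lower (-1.45 ± 0.65, adjusted p = 3.26e-04), with ratios from -2.75 on array 2 to -0.78 on array 1. F5, the cofactor of factor X, was at -0.41 ± 0.32 (adjusted p = 0.0133), below 0 on all 8 arrays and under 2-fold.

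Of the 5 anticoagulants, Proz was called lower and the other 4 stayed within 2-fold of the control. Proc, protein C, which inactivates factors V and VIII, was at -0.95 ± 0.37 (adjusted p = 2.29e-04), with all 8 tumors between -1.43 and -0.50. Pros1, protein S, its cofactor, was the other way, at 0.43 ± 0.23 (adjusted p = 0.0035), above 0 on all 8 arrays. The 2 differed by 1.38 ± 0.47 (Pros1 minus Proc), positive on 8 of 8 arrays (exact permutation p = 0.00781, adjusted over 12 pairs 0.0234). Protein S is also made by endothelial cells and macrophages, whose summed markers were 12.63 to 13.56 and 13.54 to 15.16 in the tumors and 14.06 to 14.51 and 14.41 to 15.77 in the controls. Of 8 endothelial and 7 macrophage markers tested, 2 and 3 were called lower and 0 of either higher. Neither list ran one way. The endothelial means were below 0 for 4 and above 0 for 4, from Clec4g at -3.13 to Cdh5 at 0.49. The macrophage means were below 0 for 4 and above 0 for 3, from Clec4f at -3.33 to C1qa at 0.51. The part of these cells in the value of Pros1 was not tested.

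Serpinc1, antithrombin, was at -0.59 ± 0.45 (adjusted p = 0.00764), and Serpind1, heparin cofactor II, at -0.46 ± 0.48 (adjusted p = 0.0308). Both were below 0 on all 8 arrays, with their lowest values, -1.35 and -1.58, on array 8. Their difference was 0.13 ± 0.47 (Serpind1 minus Serpinc1; exact permutation p = 0.531, adjusted 0.637, n = 8).

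**Figure D3:**
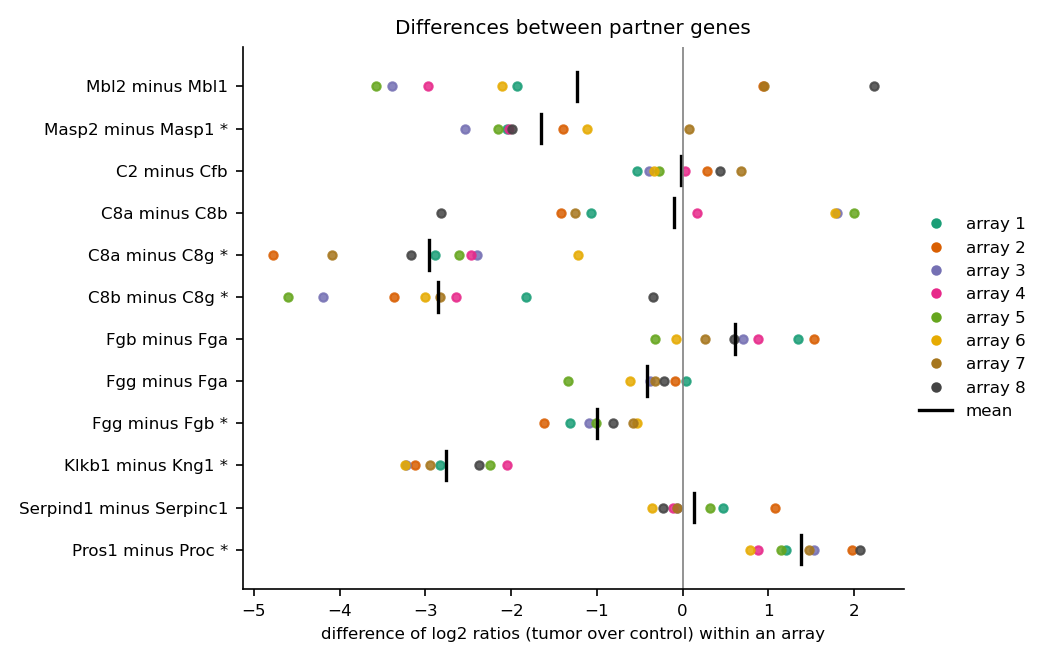
Difference between the log2 ratios of 2 partner genes within each array (x axis) for the 12 pairs compared (y axis); points are arrays, the black bar is the mean, and an asterisk marks an adjusted exact permutation p under 0.05. C8a and C8b lie below C8g, Klkb1 below Kng1 and Fgg below Fgb on every array measured, and Pros1 lies above Proc on all 8.

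In the fibrinolytic arm, Plg was called lower and the genes that restrain it were not. Plg, plasminogen, the zymogen of plasmin, was 2.49-fold lower (-1.32 ± 0.29, adjusted p = 1.43e-05), with all 8 tumors between -1.83 and -0.86. Serpinf2, the main inhibitor of plasmin, was at 0.01 ± 0.52 (adjusted p = 0.972). Cpb2, a carboxypeptidase that slows clot lysis by removing the sites to which plasminogen binds, was at 0.42 ± 0.32 (adjusted p = 0.0126), above 0 on all 8 arrays and short of 2-fold.

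Other genes of the same systems, mostly receptors, regulators and factors from other cells, did not run one way. Of 49 tested of 54 listed, 7 were called higher and 13 lower, with a median of -0.10. Among 19 other complement genes, 1 rose and 8 fell. Clu, clusterin, a chaperone that blocks the membrane attack complex, rose by 1.18 ± 0.61. Colec10, a collectin, was at -3.53 ± 1.50 and well above background in 7 tumors, and Fcna, ficolin A, another sugar sensor of the lectin route, at -2.47 ± 0.58. Cfd, factor D, which cleaves factor B and is made mostly by fat cells, was at -2.54 ± 0.84, but well above background in only 1 tumor; its size is not settled, since the mean was -5.92 with the processed signals. Vsig4, a complement receptor of macrophages and 1 of the macrophage markers above, was at -2.33 ± 1.16.

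Genes of plasminogen activation at cell surfaces were among those that rose. Of 23 other clotting and fibrinolysis genes, 6 were called higher and 4 lower. Anxa2, annexin A2, which docks plasminogen and its activator, was at 2.67 ± 0.34 (adjusted p = 4.9e-07), with ratios from 2.22 to 3.25. Plat, tissue plasminogen activator, was at 2.31 ± 0.48, and Plaur, the urokinase receptor, at 1.85 ± 0.36. Each of these 3 was higher on all 8 arrays. S100a10 and Plau, urokinase, of the same list were not called. S100a10 was at -0.20 ± 0.49 (adjusted p = 0.311). Plau was at 0.64 ± 0.51 (adjusted p = 0.00875), above 0 on 7 arrays and short of 2-fold. Plau was well above background in 7 tumors and 0 controls. Stellate cell and fibroblast markers summed to 13.33 to 16.17 in the tumors and 11.49 to 12.66 in the controls. Of these 8, 5 were called higher, and the other 3 had means below 0 (Lrat at -0.76, Reln at -0.58 and Des at -0.28). Platelet markers summed to 11.28 to 12.79 in the tumors and 10.21 to 10.79 in the controls. Of these 6, 2 were called higher, Pf4 at 1.75 and Itgb3 at 1.25. The other 4 had means from -0.03 (Itga2b) to 0.15 (Gp9). The part of stellate cells, fibroblasts and platelets in the rises of Anxa2, Plat and Plaur was not tested.

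The 4 genes of that list called lower were Fgl1, Tfpi2, F8 and Hgfac. Fgl1, a secreted protein of the fibrinogen family made by hepatocytes, was at -1.95 ± 1.59, below 0 on 7 arrays. Tfpi2, a serine protease inhibitor, was at -1.41 ± 0.59. F8, factor VIII, made by sinusoidal endothelium, was at -1.28 ± 0.21, or -0.89 as the mean of its probes, which is short of 2-fold, and -1.97 with the processed signals. Hgfac, the protease that activates hepatocyte growth factor, was at -1.22 ± 0.47. Of the 7 genes of the vitamin K cycle and of factor secretion, 1 was called lower and 0 higher: Vkorc1, the enzyme that recycles vitamin K, at -1.11 ± 0.36. Without an adjustment or a size limit, 3 of the 7 were lower and 0 higher at p under 0.05 by limma. Over all 14312 genes, 3989 were lower and 4529 higher at that limit.

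**Figure D4:**
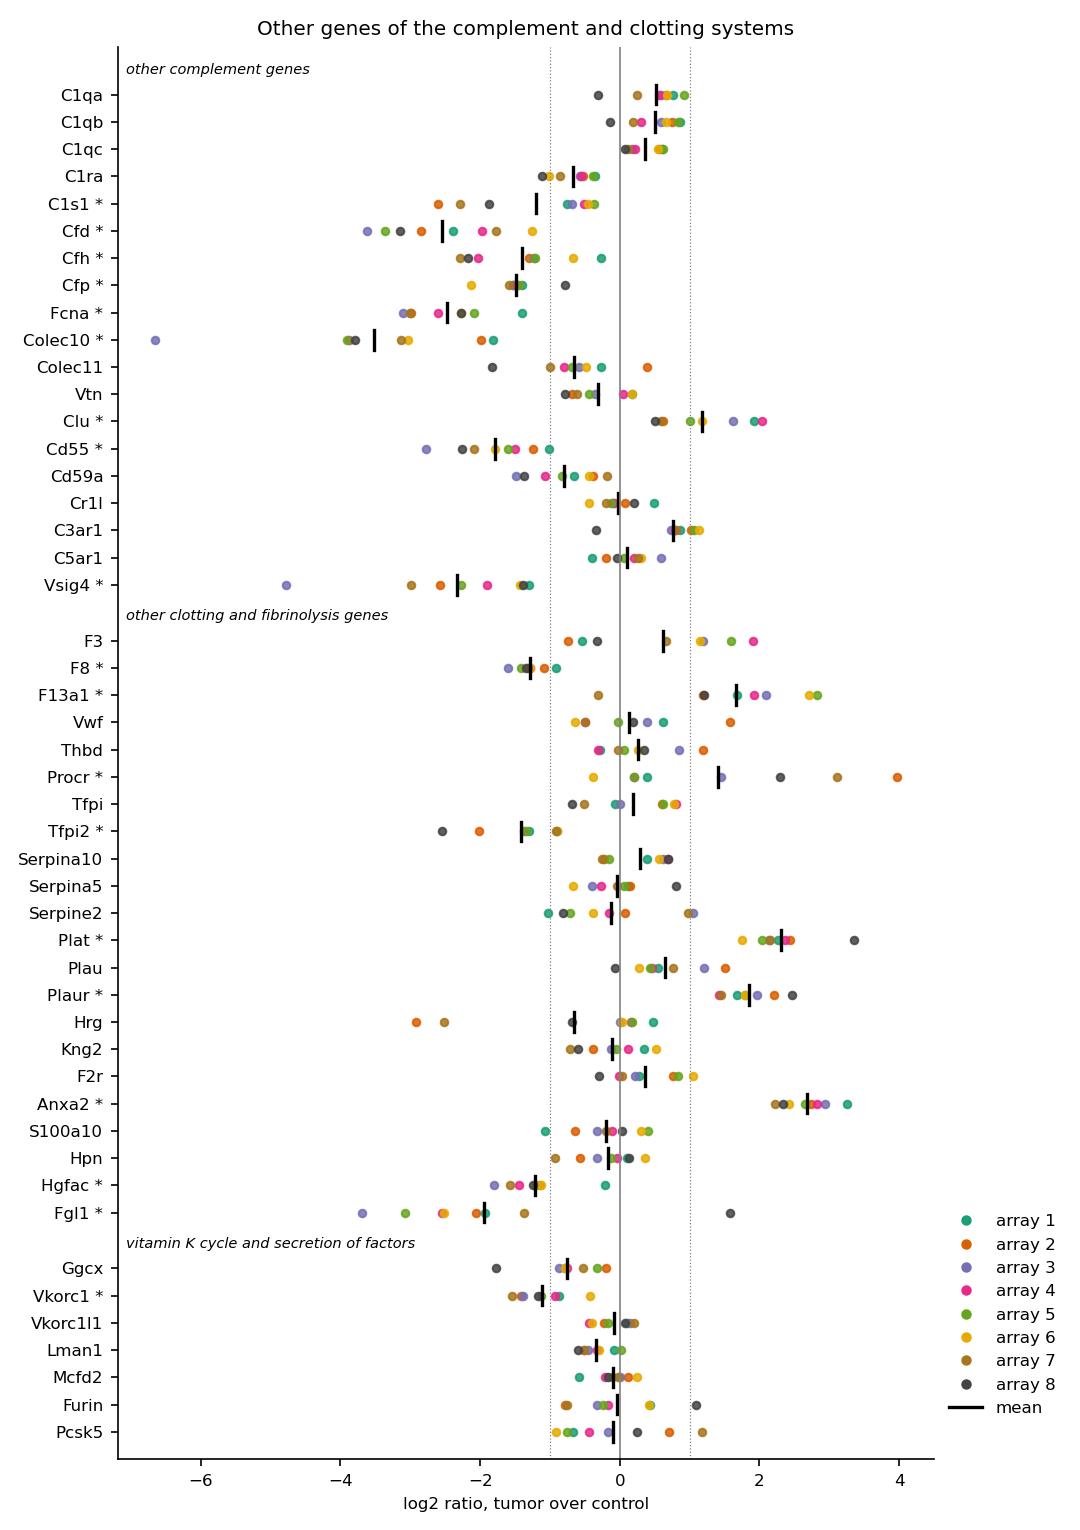
Log2 ratio of tumor over control (x axis) of other complement, clotting and vitamin K genes tested (y axis). Points are arrays, the black bar is the mean, dotted lines mark 2-fold and an asterisk a called gene; Anxa2, Plat and Plaur lie to the right of 0 on all 8 arrays, and Colec10, Cfd, Fcna and Vsig4 to the left.

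Transcripts of the factors that drive liver and acute phase genes were also measured. Of 13 regulators tested, 0 were called in either direction by limma. Ignoring size, 5 were lower at an adjusted p under 0.05, 6 lower at an unadjusted p under 0.05, and 0 higher by either. Over all 14312 genes, 25.1% were lower and 28.7% higher by the adjusted p. By the unadjusted p, 3989 of all genes were lower and 4529 higher. The median of the 13 was -0.34, and the range was -0.94 to 0.56.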

How the data were processed

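RNA of 8 tumors and of control livers was hybridised pairwise to 8 arrays of 2 colours on 1 slide. Per the labels, RNA was purified with miRVana and RNeasy kits. The deposited scanner files hold the intensity of each spot and of its background, written by Agilent Feature Extraction 10.9.1.1 per the file headers (10.9 per the submitters' processing notes). Median signals were corrected with normexp (offset 50), normalized by loess within arrays with control and outlier spots at weight 0, and averaged per probe (limma 3.58.1 in R 4.3.3). Channel levels were taken after loess and Aquantile. Of 55681 probes, 26582 got a gene name by looking up their accession in the RefSeq annotation of GRCm38.p6, from which gene order and promoters also come.

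Probes (29292) entered the test when 1 channel was well above background on 4 or more arrays, and the brightest probe stood for its gene; 10 members had several probes. Means were tested against 0 with limma (lmFit, eBayes). The 12 pairs were tested with a two-sided exact permutation of signs over arrays. The fit was tested on simulated data. The named genes were all 38 members and, of each other list, at most the 4 largest called rises and 4 largest called falls; 1 gene so named is counted but not reported here. Members and lists were chosen with earlier results of these data known. Arrays give no read depth; their number limits the precision. Alternatives covered background, normalization, filters, probe choice, variance model, slide row and each array left out.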

Additional observations from a re-analysis of the deposited data

Results flagged for a closer look

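In 57 genes, the highest or lowest of the 8 arrays was compared with its nearest neighbour, and 5 genes had an array that stood apart from the other 7. Chance alone flags about 1 in 20 groups. Among the 38 members this held for 1. Serpind1, heparin cofactor II, was at -1.58 on array 8, where the next lowest array was at -0.58 and the highest at -0.06. The Serpind1 signal of that tumor was 13.92, against 15.07 to 15.48 in the other tumors. The control signal of that array, 15.50, lay within the 15.16 to 15.79 of the other controls. The control liver of array 8, and to a lesser degree its tumor, held skeletal muscle transcripts (summed log2 levels of 16.56 and 12.60). Their part in the Serpind1 ratio was not tested.

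Of the other genes, 2 stood apart on array 8. Plat was at 3.36 there and at 2.44 or less elsewhere. Fgl1 was at 1.58 there, above its control, and at -1.37 or less on the other 7 arrays. The difference lay in the control channel, whose Fgl1 signal was 13.82 on array 8 and 16.34 to 17.03 on the others. The Fgl1 signal of that tumor, 15.40, lay within the 13.21 to 15.53 of the other tumors. Colec10 was at -6.66 on array 3, with the next lowest array at -3.91. The Colec10 signal of that tumor was 5.60, against 8.41 to 9.90 in the other tumors. Since Colec10 was well above background in only 7 of the 8 tumors, the size of that ratio is not settled. Hgfac was at -0.22 on array 1, with the next highest at -1.13.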

How the results depend on the processing

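The number of members called lower was 16 or 17 under every alternative run, leaving out each array in turn included, and 0 were called higher. No called gene or pair changed direction. Values near 0 that were not called did change sign under at least 1 alternative: Serpinf2, F10, Masp1, C3, Cfb, and the pairs C2 and Cfb, C8a and C8b, Serpind1 and Serpinc1. Without array 8, 15 of the 16 calls remained: Serping1 was lost and Fga gained. In other fits F7, Proc or Fga was gained. Chosen after seeing the data, each row of the slide was fitted alone. Row 1 lost Serping1 (-0.99, adjusted p = 0.0193 by limma). Row 2 lost F11, Fgg and Mbl2 and gained C8g, F7 and Proc, and in it 4 other complement and clotting genes were called higher instead of 7, with Clu at 0.82; Fgl1 was at -1.35 there (adjusted p = 0.257 by limma), no longer called. A row holds 4 arrays, so fewer samples enter each fit. Of the 12 pairs, 6 passed; the count was 4 to 5 with 1 array left out, where 7 arrays allow no p below 0.0156 (exact permutation), and 4 to 7 over all alternatives. Masp2 minus Masp1 and Fgg minus Fgb were lost in this way, with adjusted p of 0.0536 to 0.0625. Median centring moved the median of all genes from 0.03 to 0.06, and the processed signals moved it to -0.05. The ratio within an array sets each tumor against the control on that array, so the tests are already paired by array.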

Other observations

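Further genes whose values set the tumors of arrays 2, 7 and 8 beside the other 5 were looked up after the pattern of C8a and Mbl2 had been seen, and are given as values without a test. C1s1, a protease of the classical complement route, had ratios of -0.75, -2.60, -0.68, -0.51, -0.36, -0.46, -2.29 and -1.88 on arrays 1 to 8. Procr, the endothelial receptor of protein C, had 0.39, 3.97, 1.45, 0.21, 0.20, -0.39, 3.11 and 2.29. Hrg, a plasma protein that binds heparin and plasminogen, had 0.47, -2.92, 0.00, 0.16, 0.18, 0.03, -2.51 and -0.68. C1s1 was lowest and Procr highest in the tumors of arrays 2, 7 and 8, and Hrg was lowest there too.

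The hepatocyte markers did not run one way across these tumors. Cps1, the first enzyme of the urea cycle, was at -2.94, 0.18, -3.19, -1.92, -2.28, -1.95, 0.09 and -1.14 on arrays 1 to 8. Tat, tyrosine aminotransferase, was at -2.75, 0.58, -2.70, -1.98, -1.68, -2.32, 0.78 and 0.53. Both were nearest to or above the control in the tumors of arrays 2, 7 and 8, as Mbl2 was. Alb, albumin, went the other way, at 0.91, -0.92, 0.41, 0.07, -0.10, 0.70, -1.95 and -1.45, and Apob, an apolipoprotein, was at -0.69, -1.74, -0.56, -0.21, -1.01, -0.51, -1.18 and -0.89. Ttr, transthyretin, was lowest on arrays 8 (-1.44) and 2 (-1.12) but at -0.49 on array 7.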
